A study of Mus musculus with 42 samples.

Results

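The milk protein genes of the mouse were followed here through 3 subsets of thymic epithelial cells: the 5 casein genes Csn1s1, Csn2, Csn1s2a, Csn1s2b and Csn3, and the non-casein genes Wap, Lalba and Glycam1. They were taken as the rows of the count table whose Ensembl identifiers carry these symbols in the GENCODE M21 annotation, which gave 8 genes of 53465 in the table. Caseins are the micelle-forming phosphoproteins that make up most of the protein of milk. Alpha-S and beta-caseins carry calcium phosphate, and kappa-casein keeps the micelle in solution. In the lactating mammary gland these genes are switched on by prolactin through its receptor, the kinase JAK2 and the transcription factor STAT5, together with glucocorticoids. Medullary thymic epithelial cells (mTEC) are known to transcribe many genes that are otherwise restricted to single tissues, in part through the regulator Aire, and to present the products to developing T cells. Cortical thymic epithelial cells (cTEC) support earlier steps of T cell development and are not known for that kind of transcription.

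The study compared mTEC and cTEC of mice with a deletion of Ski, a transcriptional co-repressor, in thymic epithelial cells. Each library came from 200 cells that were positive for the epithelial marker Epcam and negative for the leukocyte marker CD45, sorted into full-length cDNA synthesis with PCR amplification. The cTEC did not bind the lectin UEA and carried Ly51, the MHCII-low mTEC bound UEA with low Ly51 and low MHC class II, and the MHCII-high mTEC bound UEA with low Ly51 and high MHC class II. Each subset had 3 genotype labels: Control, KO and Ski flox Control. Of cTEC there were 5 Control, 7 KO and 2 Ski flox Control libraries. MHCII-low and MHCII-high mTEC each had 4, 7 and 2 in that order, after 1 Control library of each mTEC subset was left out for having fewer than 100000 counts. The Cre driver, the deleted exons, the alleles behind the Control label, and the age and strain of the mice are not given here. Libraries cannot be assigned to animals from the labels. The p-values below therefore reflect library-to-library spread only, which may be technical.

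The 40 libraries used held 3217251 to 7068077 counts and 11084 to 21447 detected genes. Their library numbers follow each other without a gap and were divided here into a lower run, called early (19 libraries), and a higher run, called late (21). Every Ski flox Control library is late. No label marks this division or says that the runs differ in handling, and both hold Control and KO libraries of each subset. Summed cTEC markers ranged from 566 to 22578 CPM (counts of the gene scaled to a common library size) in cTEC and from 462 to 3250 over both mTEC subsets. KO replicate 5 (566 CPM) and Control replicate 5 (2614 CPM) of cTEC thus lay within the mTEC range. KO replicate 5 also had the highest summed mTEC markers of the cTEC libraries, at 2130 CPM. Thymocyte markers were present in every subset, with all 12 detected and median sums of 2067 CPM in cTEC, 1645 in MHCII-low and 588 in MHCII-high mTEC. Ski itself had 0 to 220 counts in libraries labelled KO and 19 to 197 in Control libraries of the 3 subsets, and these ranges overlap. The KO median lay below the Control median in each subset, with 40 against 92 counts for cTEC, 36 against 95.5 for MHCII-low and 33 against 50.5 for MHCII-high mTEC. For the pairs labelled Ski flox Control, Ski stood at 141 and 145 counts in MHCII-low mTEC, 22 and 44 in MHCII-high mTEC, and 15 and 23 in cTEC. Counts over the whole gene do not show a deletion of part of it, so this table checks the KO labels only in part.

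Beta-casein was the dominant milk transcript and one of the most abundant transcripts of MHCII-high mTEC. Csn2 lies on chr5:87692624-87699630 of GRCm38 on the minus strand (ENSMUSG00000063157). Its TMM-normalised level in MHCII-high mTEC was 1707 ± 527 CPM (SD, n = 13), which is rank 31 of all 53465 genes by mean CPM. Per kilobase of mRNA it reached 1284 CPM, rank 28 of 21900 protein-coding genes, where Aire stood at 324 CPM per kilobase, rank 257. In MHCII-low mTEC the mean Csn2 level was 542 ± 663 CPM (SD, n = 13), rank 198 by CPM, and in cTEC it was 62.2 ± 158 CPM (SD, n = 14).

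The Csn2 values of single libraries show how differently the subsets behaved. In MHCII-high mTEC the 4 Control libraries held 1882, 1938, 1095 and 457 CPM, the 7 KO libraries ranged from 1265 through a median of 2065 to 2270 CPM, with the Ski flox Control pair at 1307 and 1776 CPM. In MHCII-low mTEC the Control libraries held 238, 1893, 64.1 and 982 CPM, the KO libraries ranged from 40.3 through a median of 109 to 1598 CPM, with the Ski flox Control pair at 126 and 104 CPM. In cTEC the 5 Control libraries held 0, 10.5, 67.1, 0 and 0 CPM, the KO libraries ranged from 0 through a median of 36.3 to 600 CPM, with the Ski flox Control pair at 0 and 8.69 CPM. Every one of the 26 mTEC libraries contained Csn2, whereas 6 of 14 cTEC libraries had no Csn2 count. MHCII-low libraries spanned the space between the other subsets, with some at MHCII-high levels and others within the cTEC range. The bulk values cannot tell fewer Csn2-transcribing cells from less Csn2 RNA per cell.

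**Figure D1:**
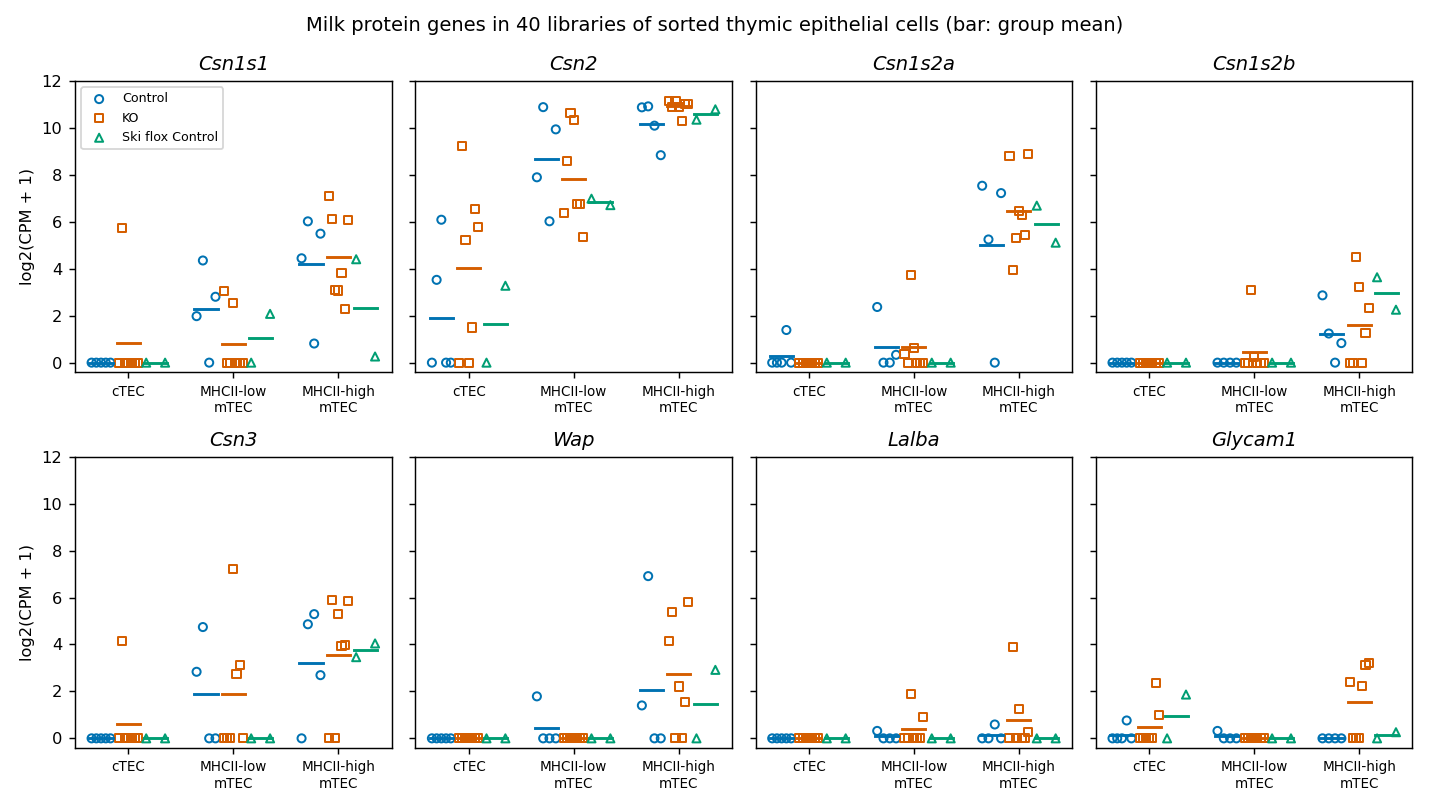
Level of each milk protein gene in each of the 40 libraries on the y axis as log2(CPM + 1), by cell type on the x axis, with 1 point per library and colours for the genotype labels. Csn2 is the gene present in all 26 mTEC libraries, and the other members have many libraries at 0 in cTEC and MHCII-low mTEC.

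The STAT5 consensus is a palindrome, TTCNNNGAA, which is its own reverse complement. Windows of 300 bases, from 250 bases before to 50 after each RefSeq gene start (GRCm38.p6), were available for 6 of the 8 members, and 4 of them held this motif. Among all 32851 windows of full length, 2726 (8.3%) held it. Of these 4 members 3 are caseins, Csn1s1, Csn2 and Csn1s2a, and their sequences are shown because these genes carry most of the casein counts. The other member is Glycam1, where the match is TTCCCAGAA, 145 to 137 bases before the start. Neither Wap nor Lalba held the motif in this window, which says only that these letters are not there. Each sequence runs 5′ to 3′ on the gene's strand with the motif in capitals.
Csn1s1, chr5:87665958-87666207, plus strand: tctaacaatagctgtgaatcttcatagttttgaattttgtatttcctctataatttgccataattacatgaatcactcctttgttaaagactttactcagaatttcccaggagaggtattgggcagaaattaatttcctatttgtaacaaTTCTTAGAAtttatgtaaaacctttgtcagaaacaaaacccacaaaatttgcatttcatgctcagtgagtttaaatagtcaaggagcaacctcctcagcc
Csn2, chr5:87699426-87699675, minus strand: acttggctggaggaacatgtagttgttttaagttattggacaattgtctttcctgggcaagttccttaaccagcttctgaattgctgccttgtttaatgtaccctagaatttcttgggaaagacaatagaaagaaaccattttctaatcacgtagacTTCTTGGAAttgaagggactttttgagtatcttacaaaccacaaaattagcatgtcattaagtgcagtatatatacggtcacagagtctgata
Csn1s2a, chr5:87774200-87774478, plus strand: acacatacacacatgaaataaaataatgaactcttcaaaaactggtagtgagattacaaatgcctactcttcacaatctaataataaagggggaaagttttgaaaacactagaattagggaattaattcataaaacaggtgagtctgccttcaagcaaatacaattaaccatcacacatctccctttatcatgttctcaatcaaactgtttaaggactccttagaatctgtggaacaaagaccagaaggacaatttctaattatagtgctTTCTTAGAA
In Csn1s1 the motif lies 100 to 92 bases before the start. In Csn2 it lies 93 to 85 bases before the RefSeq start, but GENCODE places the start of Csn2 at 87699630, from which the motif is 113 to 121 bases downstream. For Csn1s2a it lies 21 to 29 bases after the RefSeq start and 97 to 89 bases before the GENCODE start at 87774567. A match is a description of sequence and not evidence that the site was bound in these cells.

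The other calcium-carrying caseins lie on the same chromosome and were strongest in MHCII-high mTEC, though far below Csn2. Csn1s2a, one of the 2 mouse alpha-S2-like caseins (ENSMUSG00000061937, chr5:87774567-87788797, plus strand), had 185, 37.0, 0 and 149 CPM in the Control libraries of MHCII-high mTEC. The KO libraries of that subset ranged from 14.3 through a median of 77.4 to 477 CPM, with the Ski flox Control pair at 102 and 33.6 CPM. It was seen in 12 of 13 MHCII-high libraries, in 5 of 13 MHCII-low libraries at no more than 12.3 CPM, and in 1 of 14 cTEC libraries at 1.62 CPM. Csn1s2a therefore separated the 2 mTEC subsets more sharply than Csn2 did: its mean was 96.6-fold higher in MHCII-high than in MHCII-low mTEC, against 3.15-fold for Csn2.

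Csn1s1, the alpha-S1-casein gene at the proximal end of the cluster (ENSMUSG00000070702, chr5:87666208-87682578, plus strand), was present in all 13 MHCII-high libraries. There the Control libraries held 20.8, 63.9, 0.759 and 44.1 CPM, the KO libraries ranged from 3.93 through a median of 13.0 to 136 CPM, with the Ski flox Control pair at 20.2 and 0.199 CPM. It was found in 6 of 13 MHCII-low libraries, at most at 19.4 CPM, and in 1 of 14 cTEC libraries, KO replicate 2, at 51.7 CPM. Detection in every MHCII-high library thus went with a wide range of levels, and the lowest of them lay below the highest MHCII-low library.

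Csn1s2b, the second alpha-S2-like gene (ENSMUSG00000061388, chr5:87808082-87824426, plus strand), was the rarest casein. In MHCII-high mTEC the Control libraries held 6.30, 1.36, 0 and 0.781 CPM, the KO libraries ranged from 0 through a median of 1.37 to 21.7 CPM, with the Ski flox Control pair at 11.5 and 3.78 CPM. It was counted in 2 of 13 MHCII-low libraries, both KO, at 7.48 and 0.174 CPM, and in none of 14 cTEC libraries. A count of 0 allows up to 3 counts, which is 0.413 to 0.924 CPM in a single library and 0.0400 CPM over the 14 cTEC libraries. These limits cover counting error only.

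Csn3, the kappa-casein gene at the far end of the cluster (ENSMUSG00000001622, chr5:87925579-87932665, plus strand), was uneven between libraries of both mTEC subsets. In MHCII-high mTEC the Control libraries held 0, 28.1, 38.2 and 5.47 CPM, the KO libraries ranged from 0 through a median of 14.7 to 58.5 CPM, with the Ski flox Control pair at 9.998 and 15.5 CPM. In MHCII-low mTEC it was seen in 5 of 13 libraries, and KO replicate 4 alone, at 148 CPM, held 76.5% of the summed level. The Csn3 mean was 1.45-fold higher in MHCII-high than in MHCII-low mTEC over all libraries and 5.70-fold without that library. The single cTEC library with Csn3 was again KO replicate 2, at 16.7 CPM. Csn3 lies within an intron of the antisense gene 1700066N21Rik without sharing an exon, and the sources used here do not say whether counting used strand.

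Of the non-casein members, Wap, the whey acidic protein gene (ENSMUSG00000000381, chr11:6635482-6638637, minus strand), had the steepest pattern. It was absent from all 14 cTEC libraries, had 2.46 CPM in 1 MHCII-low library, and was present in 8 of 13 MHCII-high libraries. In the latter subset the Control libraries held 1.64, 119, 0 and 0 CPM, the KO libraries ranged from 0 through a median of 3.63 to 54.8 CPM, with the Ski flox Control pair at 0 and 6.56 CPM. High and undetected libraries occurred side by side within both the Control and the KO group.

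Lalba and Glycam1 were rare everywhere. Lalba, which encodes alpha-lactalbumin, the regulatory subunit of lactose synthase (ENSMUSG00000022991, chr15:98480400-98482721, minus strand), was seen in 4 of 13 MHCII-high, 3 of 13 MHCII-low and 0 of 14 cTEC libraries, with a highest value of 13.7 CPM in MHCII-high KO replicate 2. Glycam1 (ENSMUSG00000022491, chr15:103562759-103565081, minus strand) encodes a mucin-like glycoprotein of milk that is also made by high endothelial venules of lymph nodes, where it carries ligands of L-selectin. It was seen in 5 of 13 MHCII-high libraries (4 of them KO, at 3.75 to 8.16 CPM), in 1 MHCII-low library and in 4 cTEC libraries at up to 4.12 CPM. Glycam1 counts were thus scattered over the 3 subsets. Of 6 high endothelial venule markers, Madcam1 was higher in MHCII-high mTEC than in cTEC (log2 fold change 10.54), the 5 that could be tested gave no other call, and their part in the Glycam1 values was not tested.

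Counting the 5 caseins library by library gives the same order of subsets. MHCII-high libraries held 3 to 5 caseins with a median of 5, and 7 of the 13 held all 5. MHCII-low libraries held 1 to 5 with a median of 2, and 1 library held all 5. Among cTEC libraries 5 held none, 8 held 1, and KO replicate 2 held 3. The summed level of the 8 members was 1920 ± 626 CPM (SD, n = 13) in MHCII-high mTEC, 562 ± 687 CPM (SD, n = 13) in MHCII-low mTEC and 67.8 ± 175 CPM (SD, n = 14) in cTEC, and Csn2 made up most of each. Wide detection alone is common in MHCII-high mTEC, since 32.0% of the 23040 genes tested were also seen in all 13 libraries. The combination with near absence from cTEC is less common: 0.395% of tested genes were seen in as many MHCII-high and no more cTEC libraries than Csn1s1. The same share was 0.864% for Csn1s2a, 2.54% for Csn2, and 19.0% for Glycam1.

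**Figure D2:**
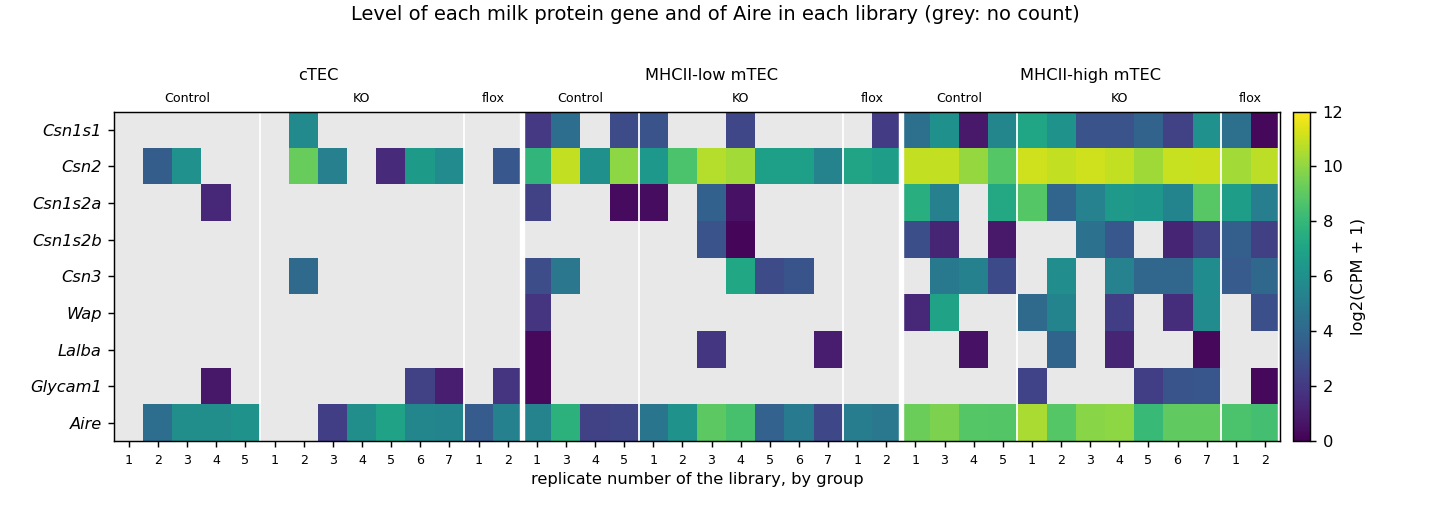
Heat map of log2(CPM + 1) for the 8 milk protein genes and Aire (rows) in the 40 libraries (columns), ordered by cell type and genotype. The MHCII-high columns hold 3 to 5 caseins each, and grey marks no count, as for most members other than Csn2 in cTEC.

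The question of whether the members differ between cTEC and mTEC was tested with edgeR's quasi-likelihood test on the counts, with p-values adjusted by the Benjamini-Hochberg method over all 23040 genes tested and a threshold of 0.05. Averaged over the 3 genotype labels, 6 of 8 members were higher in MHCII-high mTEC than in cTEC: all 5 caseins and Wap. Over all genes 15.8% were called higher and 17.5% were called in either direction. By mean CPM the differences were 1124-fold for Csn1s2a (log2 fold change 10.76, SE 1.93, adjusted p = 0.000841), 27.4-fold for Csn2 (6.34, SE 1.45, adjusted p = 0.00439), 18.1-fold for Csn3 (adjusted p = 0.0318) and 9.45-fold for Csn1s1 (adjusted p = 0.0222). The cTEC means of Csn1s1 and Csn3 came wholly from KO replicate 2, as did 68.8% of that of Csn2, and Csn1s2a had 7 cTEC counts in 1 library. Without KO replicate 2 the difference was 81.8-fold for Csn2, at least 831-fold for Csn1s1 and at least 514-fold for Csn3, and the same 6 members were called. Leaving out single libraries moved the log2 fold change from 6.03 to 8.83 for Csn2 and from 5.37 to 9.90 for Csn1s1. Csn1s2b and Wap had no cTEC count, and against 3 counts over the group they were at least 114-fold (adjusted p = 0.0184) and at least 473-fold (adjusted p = 0.0191) higher. Lalba could not be fitted in this comparison, because some genotypes had no count in either subset. Glycam1 was not called (adjusted p = 0.459), and its mean was 3.07-fold higher while its fitted log2 fold change, which weights genotypes equally, was -1.29.

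The members' median log2 ratio of mean CPM for MHCII-high mTEC over cTEC was 4.85, against 0.33 over all tested genes. Csn1s2b, Wap and Lalba had no cTEC count and entered this median with 3 counts over the group, so their ratios are lower bounds. The calls rested on small groups: without Ski flox Control replicate 1 of cTEC the test called 1 member, Csn1s2a, and 1.55% of all genes, and without replicate 2 it called Csn2 and Csn1s2a and 1.65%. An additive model of cell type and genotype, chosen after seeing the data, called 7 members higher, all but Glycam1, against 26.3% of all genes.

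Within Control libraries alone the test called none of the 8 members in MHCII-high mTEC against cTEC, with 1.11% of all genes called, and 6 members had an unadjusted p under 0.05 (21.2% of all genes). DESeq2 called 5 (7.41% of all genes) and limma voom 3 (8.48%). The values themselves separated for Csn1s1 and Csn2: the lowest MHCII-high Control library held 0.759 and 457 CPM, and the highest cTEC Control library 0 and 67.1 CPM. Such separation in the higher direction occurred in 6.8% of tested genes. Among KO libraries 5 members were higher in MHCII-high mTEC than in cTEC, namely Csn2 (4.13, SE 1.33, adjusted p = 0.0362), Csn1s2a (adjusted p = 0.00113), Csn1s2b (adjusted p = 0.0285), Wap (adjusted p = 0.0274) and Lalba (adjusted p = 0.0369), where 12.9% of all genes were called higher and 14.7% in either direction. The Lalba call rested on 55 counts in 3 of 7 MHCII-high KO libraries, and KO replicate 2 held 89.7% of the summed level. KO libraries of the 2 subsets did not overlap for Csn2 and Csn1s2a, against 2.46% of genes.

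Between MHCII-low mTEC and cTEC no member passed the edgeR threshold with all libraries, though the mean of Csn2 differed. Csn2 averaged 8.71-fold more in MHCII-low mTEC than in cTEC over all libraries, and the test narrowly missed the threshold (log2 fold change 4.20, SE 1.25, adjusted p = 0.0511). Without cTEC KO replicate 2 the Csn2 difference was 25.95-fold, and Csn2 and Csn1s1 were called, with 4.01% of all genes. Leaving out single libraries moved the log2 fold change of Csn2 from 3.87 to 6.67. Csn1s2a was 11.6-fold and Csn3 12.5-fold higher by mean CPM, both with counts in 5 of 13 MHCII-low libraries. The Csn3 value rested on 1 library on each side: it was 3.18-fold without MHCII-low KO replicate 4 and at least 354-fold without cTEC KO replicate 2. None of the 8 members was called by edgeR over all genotypes (3.52% of all genes called), in Control (0.773%) or in KO (5.68%). Over all genotypes only 3 of the 8 members could be fitted. At an unadjusted p under 0.05 there were 3, 3 and 4 members, against 16.4%, 17.9% and 26.1% of all genes. For the same 3 comparisons DESeq2 called 3, 4 and 1 (12.4%, 6.6% and 10.1% of all genes), and limma voom called 0 in each (8.58%, 4.51% and 4.5%). The additive model called 5 higher, Csn2, Csn1s2a, Csn1s2b, Csn3 and Lalba, against 17.9% of all genes.

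Between the 2 mTEC subsets Csn1s2a had the lowest p-value of the members. Over all genotypes its log2 fold change was 8.07 (SE 1.81, adjusted p = 0.0611), while that of Csn2 was 2.14 (SE 1.06, adjusted p = 0.340). The edgeR test called 0 of 8 members over all genotypes (0.0694% of all genes), in Control (0%) and in KO (0.0174%). Over all genotypes 6 of the 8 members could be fitted. In the same order, 3, 2 and 4 members had an unadjusted p under 0.05 (14.8%, 7.47% and 17.5% of all genes). DESeq2 called 3, 0 and 2 of the members (5.69%, 0.916% and 2.4% of all genes), and limma voom called 3, 0 and 4 (6.89%, 0.343% and 2.76%). The KO libraries of the subsets did not overlap for Csn1s2a, with 14.3 CPM the lowest of MHCII-high and 12.3 CPM the highest of MHCII-low mTEC, a separation found in 0.169% of tested genes. Under the additive model Csn1s2a (adjusted p = 0.000869) and Wap (adjusted p = 0.00905) were called higher in MHCII-high mTEC, against 4.67% of all genes.

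The deletion of Ski was tested within each subset by comparing libraries labelled KO with Control libraries. No member was called in cTEC, in MHCII-low mTEC or in MHCII-high mTEC by edgeR, and 0% of all 23040 genes were called in any of the 3. At an unadjusted p under 0.05 there were 2, 2 and 1 members of 8, against 10.6%, 7.11% and 6.88% of all genes. DESeq2 called 2, 1 and 0 (2.24%, 1.02% and 0.634% of all genes), and limma voom called 0 in each (0.0434%, 0.0477% and 0.0608%). In MHCII-high mTEC the mean of Csn2 was 1343 ± 705 CPM (SD, n = 4) in Control and 1961 ± 341 CPM (SD, n = 7) in KO libraries, a log2 fold change of 0.55 with an SE of 1.40 (edgeR adjusted p = 1). In MHCII-low mTEC it was -0.61 with an SE of 1.35. Standard errors of this size leave changes of several fold in either direction undetectable with these libraries.

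The largest KO differences each came from few libraries. In cTEC, Csn1s1 (log2 fold change 8.17, SE 2.71, edgeR adjusted p = 0.329) and Csn3 (6.54, SE 2.74, adjusted p = 0.374) had counts only in KO replicate 2, and Csn2 was 7.22-fold higher in KO by mean CPM with that library at 600 CPM. Leaving out single libraries moved this Csn2 log2 fold change between 0.98 and 5.29, with the lower value reached without KO replicate 2. In that library 8 of 8 cTEC markers were detected with a sum of 15457 CPM, 7 of 10 mTEC markers summed to 1090 CPM against 352 to 2130 CPM over the cTEC libraries, and Aire had no count. In MHCII-high mTEC, Glycam1 had 118 counts in KO and 0 in Control libraries (at least 20.3-fold higher, edgeR adjusted p = 0.661), all 4 KO libraries with a count at 3.75 to 8.16 CPM. In MHCII-low mTEC, Wap had 10 Control counts in 1 library and none in KO (adjusted p = 0.687), and Csn1s2b had 37 KO counts in 2 libraries and none in Control (adjusted p = 0.683).

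**Figure D3:**
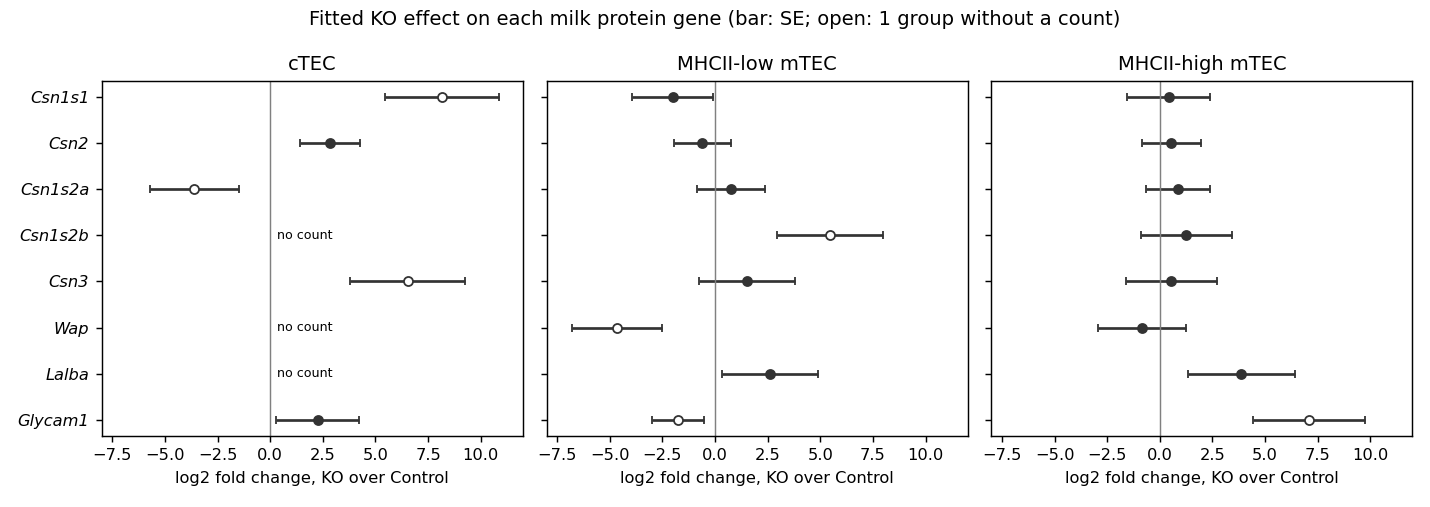
Log2 fold change of libraries labelled KO over Control (x axis) for each milk protein gene in each of the 3 cell types, with bars of 1 standard error from the edgeR fit. Open points have 1 group without a count, and no gene passed the threshold; the Csn2 points are at 2.84, -0.61 and 0.55 in cTEC, MHCII-low and MHCII-high mTEC.

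Differences of the KO effect between subsets were tested as interaction terms. None of the 8 members was called for MHCII-low mTEC against cTEC, MHCII-high mTEC against cTEC or MHCII-high against MHCII-low mTEC, with 0% of genes called in each. In both interactions with cTEC only 5 of the 8 members could be fitted. There was 1 member with an unadjusted p under 0.05 in each of the 3: Csn1s1 in the first (-10.19, SE 3.21, edgeR adjusted p = 0.453) and the second, and Glycam1 in the third (8.83, SE 2.95, edgeR adjusted p = 0.571). All genes gave 7.38%, 7.26% and 6.17% at that level. DESeq2 called 3, 2 and 1 members (1.61%, 1.59% and 0.599% of all genes), and limma voom 0 (0.0174%, 0.0304% and 0%). Against the Ski flox Control libraries, KO libraries gave 0 calls in every subset, as did Ski flox Control against Control (0% of genes in all 6 comparisons, no member at an unadjusted p under 0.05). In these DESeq2 called 2 members in cTEC (4.51% of all genes) and 1 in MHCII-low mTEC (4.33%) for KO against Ski flox Control, 2 in MHCII-low mTEC (3.38%) for Ski flox Control against Control and 0 in the other 3, and limma voom called 0. Over all subsets together, in the additive model, no member was called for KO against Control (0.321% of genes; Csn2 log2 fold change 0.87, SE 0.88) or for Ski flox Control against Control (0.00434%, which is 1 gene).

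The 5 casein genes lie within 266.5 kb of chromosome 5, and several neighbours were also higher in MHCII-high mTEC than in cTEC. Within 500 kb on either side the annotation holds 21 other protein-coding genes, of which 14 had any count and 7 were tested. Of these 7, 5 were higher in MHCII-high mTEC than in cTEC over all genotypes, against the 15.8% given above. Several of these had no cTEC count and passed the count filter through mTEC libraries alone. The number called therefore cannot test whether genes of this locus share a pattern. Amtn, which encodes the enamel-related protein amelotin, was in 12 of 13 MHCII-high libraries at a mean of 26.6 CPM and in no other library (log2 fold change 9.65, edgeR adjusted p = 0.00155), and was also the neighbour called between the mTEC subsets (adjusted p = 0.0490). The others were Odam, an ameloblast-associated gene of the same phosphoprotein family as Amtn and the caseins (8.06, adjusted p = 0.0135), the sulfotransferase genes Sult1b1 (6.82, adjusted p = 0.0266) and Sult1e1 (7.83), and the salivary gene Smr3a (5.65). In MHCII-high mTEC Sult1e1 averaged 6.39 CPM with counts in 9 of 13 libraries, and Smr3a 1.28 CPM with counts in 4 of 13. Without a cTEC count, the fitted changes of Amtn, Odam, Sult1e1 and Smr3a depend on the prior count. Summed over the 21 neighbours, the level was 65.7 ± 49.7 CPM (SD, n = 13) in MHCII-high mTEC, 19.4 ± 22.7 CPM (SD, n = 13) in MHCII-low mTEC and 0.550 ± 1.21 CPM (SD, n = 14) in cTEC.

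**Figure D4:**
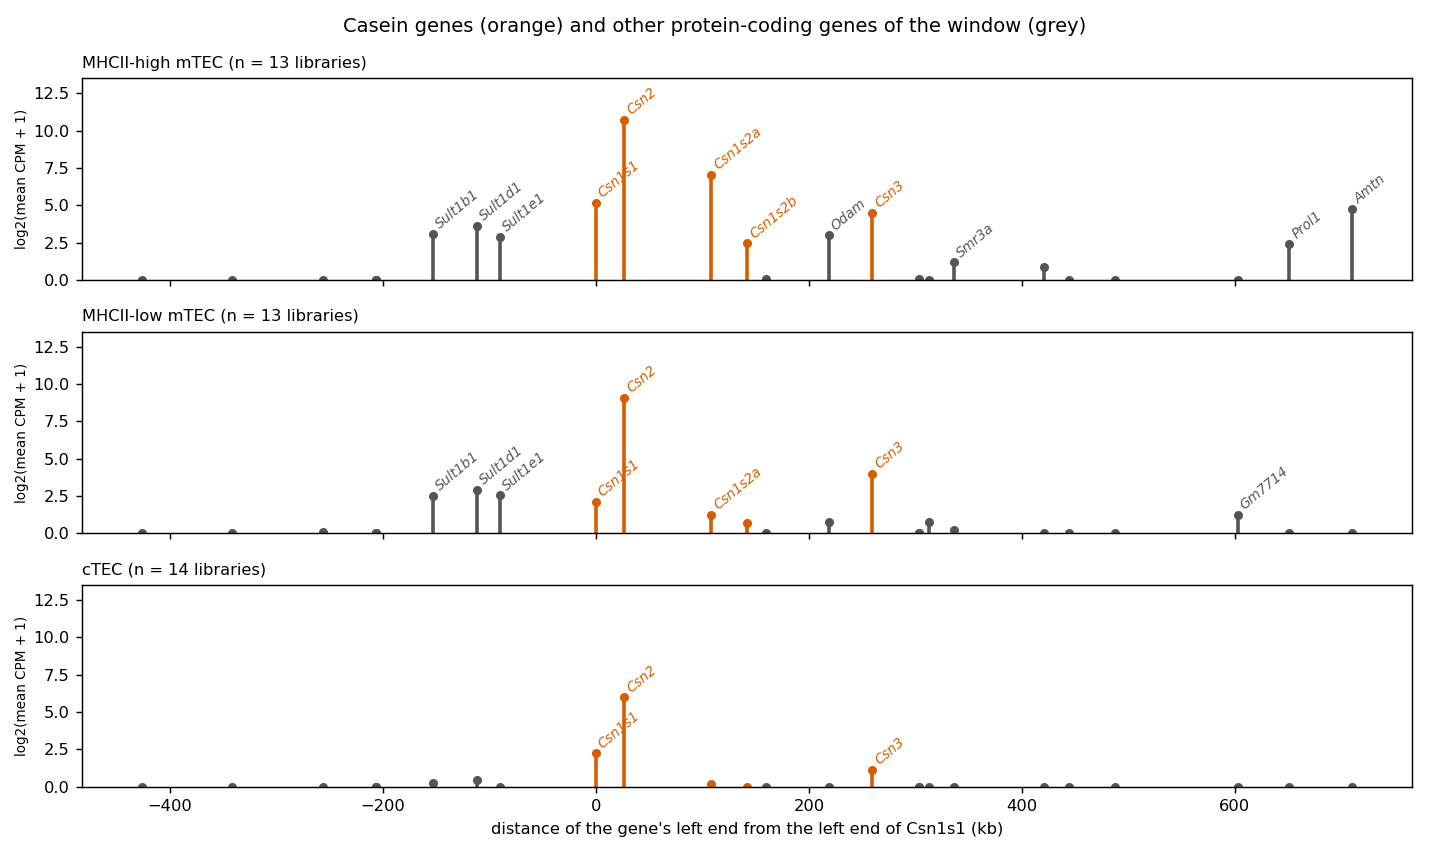
Level of each protein-coding gene around the casein cluster as log2(mean CPM + 1) on the y axis, by its distance in kilobases from the left end of Csn1s1 on the x axis, in the 3 cell types. Csn2 is the highest gene of the window in every subset, and Amtn, at a mean of 26.6 CPM, has counts in MHCII-high mTEC alone.

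The regulators that drive milk genes in the mammary gland were examined as a list of 16 genes, 15 of which were tested. In MHCII-high mTEC against cTEC over all genotypes, 4 were higher and 1 lower, where 15.8% of all genes were called higher. Prlr, the prolactin receptor, averaged 17.8 CPM in MHCII-high mTEC against 0.924 CPM in cTEC (log2 fold change 5.59, edgeR adjusted p = 0.0271). Elf5, a transcription factor of the secretory mammary lineage, was also called higher (6.59, edgeR adjusted p = 0.0168). Its level was low, with a mean of 2.60 and a median of 0.274 CPM and counts in 9 of 13 MHCII-high libraries. Elf5 had no cTEC count, so its fitted change depends on the prior count. Cebpb (1.45, adjusted p = 0.0115) and the STAT5 target Cish (1.43, adjusted p = 0.00627) were higher too, while the glucocorticoid receptor gene Nr3c1 was lower (-1.37, adjusted p = 0.0221). The other listed STAT5 target, Socs2, averaged 485 CPM in cTEC and 199 CPM in MHCII-high mTEC (adjusted p = 0.246), and Jak2 355 and 173 CPM (adjusted p = 0.175), neither called. Stat5a was not called either, at 104 CPM in cTEC, 74.9 in MHCII-low and 154 in MHCII-high mTEC. No regulator was called between the mTEC subsets or for KO against Control in any subset.

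Genes for other secreted and membrane proteins of milk were more widely raised, and in both mTEC subsets. Of 17 listed, 16 were tested and 15 could be fitted over all genotypes. Of these, 10 were higher in MHCII-high mTEC than in cTEC and 6 in MHCII-low mTEC than in cTEC, against 15.8% and 3.12% of all genes. Of the 10, the largest changes were those of Ltf (lactoferrin, log2 fold change 8.49, edgeR adjusted p = 0.0139), Lcn2 (lipocalin, 6.96, adjusted p = 0.0255), the mucin gene Muc15 (6.80, adjusted p = 0.0155) and Wfdc18 (6.69, adjusted p = 6.23e-07). Their summed level was 2021 ± 496 CPM (SD, n = 13) in MHCII-high and 2028 ± 886 CPM (SD, n = 13) in MHCII-low mTEC, against 532 ± 165 CPM (SD, n = 14) in cTEC. Wfdc18 made up much of these sums and averaged 689 CPM in MHCII-high and 1035 CPM in MHCII-low mTEC, while Lpo went the other way, with 515 and 130 CPM, as did Muc1, with 139 and 76.5 CPM. Of 12 luminal mammary epithelial genes 6 were higher in MHCII-high mTEC than in cTEC, with several genes shared between these lists.

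Aire is given for comparison. Its mean was 37.6 ± 34.9 CPM (SD, n = 14) in cTEC, 102 ± 160 CPM (SD, n = 13) in MHCII-low and 628 ± 318 CPM (SD, n = 13) in MHCII-high mTEC, and it was higher in the last than in cTEC (log2 fold change 3.99, edgeR adjusted p = 0.0105). The means of Csn2, Csn1s2a, Csn1s2b and Csn3 had the same order of subsets, whereas that of Csn1s1 was 3.69 CPM in cTEC and 3.38 CPM in MHCII-low mTEC. Within the 13 MHCII-high libraries, Csn2 and Aire had Pearson's r = 0.482 and Spearman's rho = 0.753 on log2(CPM + 1), and r was 0.750 without the 2 libraries farthest in Csn2. By library set r was 0.722 in the 6 early and 0.141 in the 7 late libraries. Within the 13 MHCII-low libraries r was 0.727, with 0.944 over early and -0.0946 over late libraries, and in 14 cTEC libraries it was -0.0972. The r of other members with Aire over the 13 MHCII-high libraries was lower than that of Csn2. It was 0.355 for Csn1s1, 0.305 for Wap, 0.286 for Csn1s2a, 0.207 for Csn1s2b and -0.439 for Csn3. Csn1s1 and Csn1s2a had r = 0.605 over the MHCII-high libraries, Csn1s2a and Csn3 had r = -0.389, and Csn2 and Csn1s1 had r = 0.0411. These values describe libraries that share subset, set and depth, and the within-subset values differ in sign between casein pairs.

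**Figure D5:**
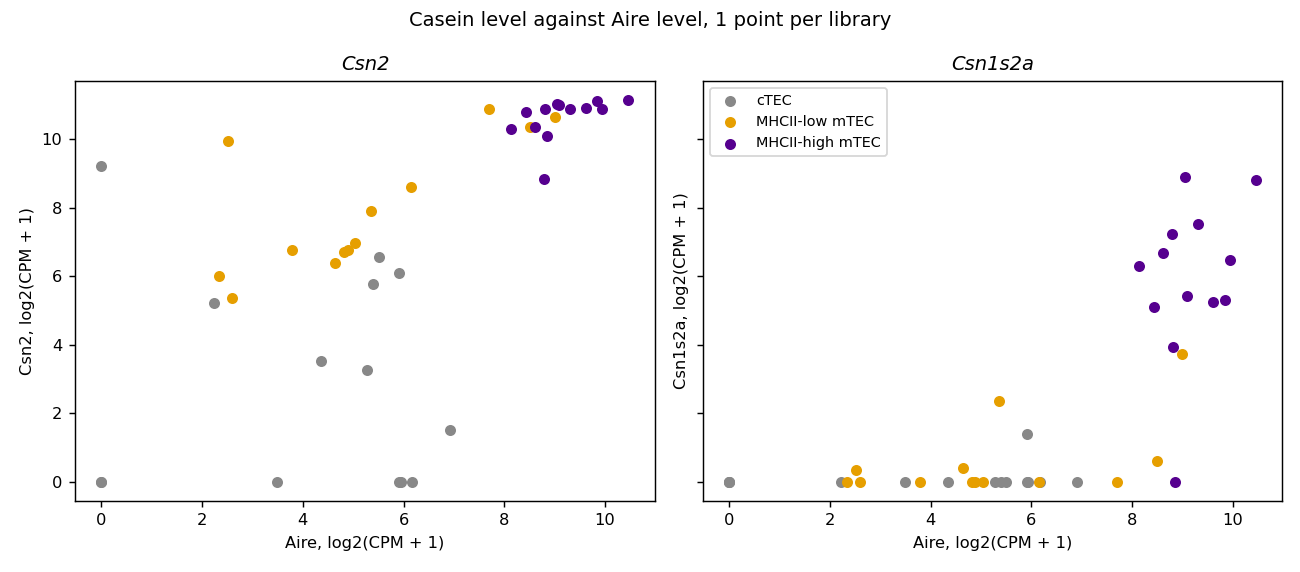
Csn2 and Csn1s2a against Aire, each as log2(CPM + 1), with 1 point per library and colours for the cell type. In MHCII-high libraries Csn2 lies at 457 CPM or more and Csn1s2a is seen in 12 of 13, while in cTEC Csn1s2a is seen in 1 of 14.

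Over all 40 libraries the genes whose log2(CPM + 1) was most like Csn2 among 20489 candidates were Tnmd (r = 0.907), Gjb2 (0.900), Gm47938 (0.890), Cadps (0.889) and H2-Q10 (0.889). For Csn1s2a they were Gm49542 (0.879), Gm21083 (0.873), Lypd6 (0.864), AU015791 (0.853) and Slc9c1 (0.851). Csn1s1 was closest to Bdkrb1 (0.787), Krt16 (0.777), Mep1a (0.776), Tff3 (0.766) and Saa2 (0.748), Csn1s2b to Bpifb3 (0.863), Bpifb6 (0.850), Grik3 (0.826), Defb45 (0.820) and Pou4f1 (0.818), and Csn3 to Klk1b26 (0.753), Klk1b16 (0.747), Gm12320 (0.738), Calb2 (0.728) and Ppp1r1c (0.717). Glycam1 had Gm10388 (0.765), H2-Ea-ps (0.682), Gm12618 (0.661), Gm2244 (0.633) and Myt1l (0.631). The 5 caseins and Glycam1 thus had different nearest genes, none of which was shared. Aire ranked 212 for Csn1s2a, 423 for Csn1s2b, 783 for Csn2, 1103 for Glycam1, 1146 for Csn1s1 and 1355 for Csn3. Wap and Lalba, with counts in 9 and 7 libraries, fell under the minimum of 10 and were not ranked.

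Levels of some members differed between the early and late libraries. Csn2 averaged 2022 ± 184 CPM (SD, n = 6) in the early and 1436 ± 586 CPM (SD, n = 7) in the late MHCII-high libraries, and 918 ± 775 CPM (SD, n = 6) and 219 ± 338 CPM (SD, n = 7) in the MHCII-low libraries. Aire moved the same way, from 863 ± 331 CPM (SD, n = 6) to 427 ± 96.0 CPM (SD, n = 7) in MHCII-high and from 202 ± 198 CPM (SD, n = 6) to 16.3 ± 12.5 CPM (SD, n = 7) in MHCII-low libraries. Summed thymocyte markers moved in the opposite direction. In MHCII-low mTEC they were at 91.5 to 472 CPM in 5 early libraries, 1607 CPM in the other early one, and 1645 to 3842 CPM in the 7 late ones. In MHCII-high mTEC they were at 47.3 to 355 CPM in 5 early libraries, 1178 CPM in the other, and 581 to 1099 CPM in the late ones. Csn3 had counts in 3 of 6 early and 7 of 7 late MHCII-high libraries. Its mean there was similar, at 20.9 ± 24.9 CPM (SD, n = 6) early and 22.1 ± 18.4 CPM (SD, n = 7) late. Of the 10 libraries with Glycam1, 8 were late. Among late libraries alone the test called 1 member between MHCII-low mTEC and cTEC over all genotypes, where it called 0 over both sets (9.95% of all genes in the late libraries), and 3 in place of 5 between MHCII-high mTEC and cTEC among KO libraries (2.76%). The early libraries alone gave 1 call for MHCII-high mTEC against cTEC both in KO (1.03% of all genes) and over the genotypes present (3.51%). The part of the sets or of thymocyte RNA in these differences was not tested.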

How the data were processed

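The authors deposited 1 table of raw counts per gene, which per the submitters' processing notes involved HTSeq 0.4.1, Picard 1.134, SAMtools 1.2, FastQC 0.11.3 and the build GRCm38. For the aligner, annotation release, strand setting and filters, the entry is: not given in the sources used here. Symbols came from GENCODE M21, which matched 53274 of 53465 identifiers. Libraries under 100000 counts were left out, which leaves 40 of 42.

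Levels are CPM with TMM factors. Tests used edgeR 4.0.16 (quasi-likelihood, R 4.3.3) with 1 mean for each of 9 groups of cell type and genotype, on the 23040 of 37695 detected genes that passed filterByExpr (minimum count 10, minimum total 15). The biological coefficient of variation was 1.40. A fitted fold change of a group without a count depends on the prior count. Contrasts over all genotypes weight genotypes equally. Alternatives used limma 3.58.1 and DESeq2 1.42.0. The edgeR step was tested on simulated data.

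All 8 members were described in every comparison. From each list at most 4 genes past the threshold with the largest change were named, or the 2 most abundant; Nr3c1, Stat5a, Socs2, Jak2, Lpo and Muc1 were named after their values were seen. Locus neighbours were named where they passed the threshold, and the 5 most similar genes by Pearson's r. The fixed marker lists of 6 B cell and 10 endothelial genes gave no call between MHCII-high mTEC and cTEC. Called higher were 1 of 10 listed myeloid markers, 5 of 10 mTEC markers and 4 of 10 regulators of promiscuous expression. Called lower were 2 of 12 listed thymocyte markers, 1 of 7 fibroblast markers and 5 of 8 cTEC markers. Over all genotypes 15.8% of all genes were called higher and 1.69% lower between these subsets. The members and lists were chosen with earlier results of these data known.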

Additional observations from a re-analysis of the deposited data

Results flagged for a closer look

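In groups of 4 to 10 libraries of 1 genotype and subset, 20 of 35 groups with a spread had 1 library far from the others by Dixon's ratio. A group with a count in 1 library only is flagged whatever the level, so this number cannot be set against a rate expected by chance. The values below are CPM.

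In cTEC, KO replicate 2 stood apart in Csn1s1 (51.7), Csn2 (599.6) and Csn3 (16.7), and Control replicate 3 in Csn2 (67.1). Control replicate 4 of cTEC stood apart in Csn1s2a (1.62) and Glycam1 (0.695), and KO replicate 6 in Glycam1 (4.12).

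In MHCII-low mTEC, Control replicate 1 stood apart in 4 members: Csn1s2a (4.18), Wap (2.46), Lalba (0.246) and Glycam1 (0.246). KO replicate 3 stood apart in Csn1s2a (12.3), Csn1s2b (7.48) and Lalba (2.70), and KO replicate 4 in Csn3 (148).

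In MHCII-high mTEC, Wap was high in Control replicate 3 (119), Csn1s2b in KO replicate 3 (21.7), and Lalba in Control replicate 4 (0.506) and KO replicate 2 (13.7). Csn2 was low in KO replicate 5 (1265), which is the lowest of the 7 KO libraries.

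The MHCII-high Control library that was left out, replicate 2, had 41828 counts in all, of which 24 were Csn2 and 7 were Csn1s2b. The limit that a count of 0 allows is 3 counts, so both genes were present in it.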

How the results depend on the processing

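No paired analysis was run, because the labels give libraries no replicate numbers of their own. The numbers used here are only names in accession order. Library numbers follow each other as cTEC, MHCII-low and MHCII-high mTEC of 1 genotype. Whether such neighbours share an animal is not labelled, and the tests treat them as independent. Of the alternatives, 13 were applied to each comparison and 40 fits left out 1 library each. Csn2 reversed between KO and Control in MHCII-high mTEC with detected genes as a covariate (log2 fold change -0.12) and in MHCII-low mTEC without Control replicate 3 (0.28; leaving out single libraries gave -1.23 to 0.28), and neither was past the threshold. Detection totalled 125 library and gene pairs, 123 after thinning to 3000000 counts and 112 at 5 counts or more.

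Counts of members called moved as follows, and the causes were not tested. The share of all genes called moved with the setting too, so these counts do not describe the members alone. For MHCII-high mTEC against cTEC over all genotypes it was 1.55% without Ski flox Control replicate 1 of cTEC and 17.9% without KO replicate 2. Shares for DESeq2 and limma voom not given here stand with the results above, and other settings without a share have none given. With DESeq2, KO against Control gave 2 in cTEC (Csn1s1, Csn3) and 1 in MHCII-low mTEC (Wap), KO against Ski flox Control 2 and 1, Ski flox Control against Control in MHCII-low mTEC 2, and the KO interactions 3, 2 and 1. MHCII-low mTEC against cTEC gave 4 in Control, 1 in KO and 3 over all genotypes with DESeq2. MHCII-high mTEC against cTEC gave 5 in Control and 3 in KO (14.9% of all genes in KO), and MHCII-high against MHCII-low mTEC gave 2 in KO and 3 over all genotypes. With limma voom the counts that moved were 3 (MHCII-high mTEC against cTEC, Control), 4 and 3 (between mTEC subsets, KO and all genotypes). For MHCII-high mTEC against cTEC in Control, 1 was called with late libraries (0.707% of all genes), no count filter, the covariate or all 42 libraries. There were 2 with the filter of 10 CPM in 5 libraries and 3 with the set as a term. In KO that comparison gave 1 with early libraries (1.03%) or only the groups compared, 2 with the stricter filter and 3 with late libraries (2.76%). Over all genotypes it gave 1 with early libraries (3.51%). MHCII-low mTEC against cTEC gave 1 in Control with late libraries (3.51%) or the set as a term, and 1 in KO with the covariate or all 42 libraries. Over all genotypes it gave 1 with late libraries (9.95%), the stricter filter, RLE factors or the set, 2 with the covariate and 5 with the additive model. Between mTEC subsets over all genotypes there were 1 with the stricter filter, only the groups compared or the set, 2 with the additive model and 3 with late libraries (6.77%). The set and additive models were chosen after seeing the data. Leaving out single libraries gave 0 to 1 in 4 comparisons (MHCII-high mTEC against cTEC in Control, MHCII-low mTEC against cTEC in KO, and MHCII-high against MHCII-low mTEC in KO and over all genotypes), 3 to 6 for MHCII-high mTEC against cTEC in KO, 0 to 2 for MHCII-low mTEC against cTEC over all genotypes and 1 to 6 for MHCII-high mTEC against cTEC over all genotypes. In the other comparisons it gave 0 to 0. Depth limits the rare members: several Lalba and Glycam1 values are of 1 to 3 counts.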
